A study of Mus musculus with 16 samples.

Results

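Islands of H3K27ac, H3K4me1 and SETD5 were described here around 9 genes of fatty acid oxidation and its control in differentiating 3T3-L1 cells, mouse preadipocytes that turn into fat cells when induced. The 9 genes were *Cpt1a*, *Cpt2*, *Acadm*, *Acadl*, *Acadvl*, *Hadha*, *Ppargc1a*, *Ppargc1b* and *Ucp1*, out of 22350 protein-coding genes on chromosomes 1 to 19 and X. They were grouped by function, with no measured value in the rule, although earlier results of these data were known when they were chosen. For each gene, all islands that overlap the gene body or the 50 kb on either side of it were taken from the 16 deposited lists. An island is a stretch of the genome in which ChIP-seq reads of 1 library were enriched, as the peak caller of the authors reported it, and its score is the caller's own measure of enrichment. The windows were between 105 and 213 kb long on build mm9. They also hold other genes, from none around *Ppargc1a* to 8 around *Acadvl*, so a change in a window need not belong to the gene it is named after.

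H3K27ac, a mark of active promoters and enhancers, was profiled in cells stably transduced with an empty retroviral vector or with a retrovirus for V5-tagged SETD5, before (0 h) and 48 h after induction with MDI (isobutylmethylxanthine, dexamethasone and insulin). SETD5 is a SET-domain protein found with the NCoR and HDAC3 co-repressors, and the transduced line was the one with moderate overexpression from a weak viral promoter, in undifferentiated cells as well as during induction. Each of the 4 conditions had biological replicates A and B, which makes 8 libraries. SETD5-V5 itself was profiled with a V5 antibody at 0 h and 6 h of induction in replicates A and B. H3K4me1, which marks enhancers whether or not they are active, was profiled at 0 h and 48 h, and endogenous SETD5 at 0 h and 6 h, with 1 library each and therefore no replicate check. The labels name no virus for replicate A of SETD5-V5, although its titles name the tagged protein. The labels of the H3K4me1 libraries name the SETD5 virus. The study, by contrast, describes the cells of the H3K4me1 data only as preadipocytes and names no virus for them. The lists hold between 31292 and 39949 islands for H3K27ac, covering between 103 and 122 Mb. For SETD5-V5 they hold 16054 and 6666 islands at 0 h and 35573 and 27220 at 6 h in replicates A and B. The lists give no reads per island, so the number of reads behind an island was not used here, and a region without an island was only below the threshold of the caller.

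Long-chain fatty acids are oxidised in mitochondria after transfer across the mitochondrial membranes as carnitine esters. CPT1A, in the outer membrane, forms the ester in the rate-limiting step, and CPT2, in the inner membrane, converts it back to acyl-CoA. Acyl-CoA dehydrogenases of different chain-length preference (ACADVL, ACADL and ACADM for very long, long and medium chains) take the first step of each round of beta-oxidation, and the trifunctional protein, whose alpha subunit is HADHA, takes the later steps for long chains. PGC-1α (*Ppargc1a*) and PGC-1β (*Ppargc1b*) are coactivators of PPAR and ERR receptors that switch on such genes, and UCP1 dissipates the proton gradient as heat in brown and beige fat. 3T3-L1 cells are a white-fat model.

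The cell type was checked at the promoters of marker genes, with a promoter taken as 1000 bp before to 100 bp after an annotated start site. Of 8 adipocyte markers, 4 carried an H3K27ac island in each of the 4 libraries at 0 h. At 48 h, 8 and 7 did so in empty-vector cells (replicates A and B) and 6 and 6 in SETD5 cells. *Adipoq* was marked at 48 h in both empty-vector libraries and in neither SETD5 library. Of 5 preadipocyte markers, 4 or 5 were marked in each library. None of the 5 brown adipocyte markers (*Ucp1*, *Prdm16*, *Cidea*, *Zic1* and *Lhx8*) was marked in any of the 8 libraries, nor was any of the 3 hepatocyte, 3 blood cell and 3 endothelial markers. Of 5 skeletal muscle markers, *Acta1* alone was marked, in replicate A of empty-vector cells at 48 h.

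The promoters of 8 members carried an H3K27ac island in all 8 libraries, against 46.1% to 49% of all genes. The exception was *Ucp1*, whose promoter held no island of any mark in any of the 16 lists. Island rank is given as the share of islands of the same list with a higher score. The promoter island of *Cpt1a* ranked high throughout, with between 3.37% and 8.48% of islands scoring higher over the 8 libraries. That of *Acadvl* had between 34.1% and 60.2% of islands scoring higher.

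Sequences are shown for the start site of *Cpt1a*, which was marked throughout, for the start site of *Ppargc1a* that lies 13.8 kb inside the annotated gene and under its promoter island, and for the start site of *Ucp1*, added after its values were seen because it was unmarked. Each is the 250 bases before the start site on mm9, 5′ to 3′ on the strand of the gene (chr19:3323051-3323300, plus strand; chr5:51945161-51945410, minus strand; chr8:85813997-85814246, plus strand).
Cpt1a: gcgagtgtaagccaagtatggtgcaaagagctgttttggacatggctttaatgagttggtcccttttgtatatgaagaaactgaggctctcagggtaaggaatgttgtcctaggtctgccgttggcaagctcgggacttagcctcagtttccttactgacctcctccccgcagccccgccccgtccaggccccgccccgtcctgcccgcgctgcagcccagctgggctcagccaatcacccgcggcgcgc
Ppargc1a: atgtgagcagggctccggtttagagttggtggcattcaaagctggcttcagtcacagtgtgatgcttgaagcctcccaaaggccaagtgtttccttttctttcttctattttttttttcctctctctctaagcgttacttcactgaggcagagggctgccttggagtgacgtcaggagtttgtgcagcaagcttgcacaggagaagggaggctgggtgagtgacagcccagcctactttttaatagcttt
Ucp1: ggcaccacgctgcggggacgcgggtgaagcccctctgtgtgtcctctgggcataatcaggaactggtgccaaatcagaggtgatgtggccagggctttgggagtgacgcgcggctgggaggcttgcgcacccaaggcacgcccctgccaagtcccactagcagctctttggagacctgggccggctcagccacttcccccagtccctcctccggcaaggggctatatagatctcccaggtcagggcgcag
The C and G content was 59.6% for *Cpt1a*, 48.8% for *Ppargc1a* and 64.8% for *Ucp1*. The elements searched for, on both strands and with overlapping matches allowed, were the ERR element TCAAGGTCA, the C/EBP element TTGCNNAA, and the PPAR element DR1, a repeat of AGGTCA spaced by 1 base, with up to 1 mismatch. None of them occurred in the 250 bases before the annotated 5′ end of *Cpt1a*, *Cpt2*, *Acadm*, *Acadl*, *Acadvl*, *Hadha*, *Ppargc1a* or *Ucp1*, nor before the inner start site of *Ppargc1a*, so no base is in capitals. Other start sites close to these and the sequences of *Ppargc1b* were not searched. In the same stretch of 22345 genes, 0.331% held the ERR element, 9.17% the C/EBP element and 0.398% the DR1 element.

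To ask how differentiation changed acetylation around the members, the length of each window covered by H3K27ac islands was compared between 48 h and 0 h in empty-vector cells. Covered length rose for *Cpt1a*, *Cpt2*, *Acadm*, *Ppargc1b* and *Ucp1*, fell for *Acadl*, and did not pass the test for *Acadvl*, *Hadha* and *Ppargc1a*. Thus 5 of 9 windows were called higher and 1 lower (limma on log2 of covered kb + 1, Benjamini-Hochberg adjusted p under 0.05 over all windows). Of the 17869 windows tested, 24.1% were called higher and 13.4% lower. The median log2 change was 0.39 for the members and 0.13 for all windows. In bulk chromatin, more cells that carry a mark and more of the mark per cell cannot be told apart.

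Both carnitine palmitoyltransferases were among the windows that rose. The *Cpt1a* window held 9.4 and 9.6 kb of H3K27ac islands at 0 h in replicates A and B, and 24 and 17.2 kb at 48 h. The time points did not overlap, and the replicates were further apart at 48 h. The log2 change was 1.02 ± 0.16 (SE, limma adjusted p = 0.00277). Most of the increase lay inside the gene: an intronic region 12.9 kb from the start grew from 1.6 and 1.2 kb to 8.0 and 4.8 kb, and a region 54.2 kb from the start, over exon and intron of *Cpt1a*, had no island at 0 h and 3.8 and 2.4 kb at 48 h. The *Cpt1a* promoter region held 4.4 and 4.6 kb at 0 h and 6.0 and 4.4 kb at 48 h, and the promoter of *Ighmbp2* and *Mrpl21*, outside the gene, 1.4 and 1.8 kb and then 2.8 and 2.6 kb. The *Cpt2* window held 23.0 and 20 kb at 0 h and 30.4 and 26.6 kb at 48 h, a log2 change of 0.39 ± 0.12 (SE, limma adjusted p = 0.0384). Its promoter region went from 2.4 and 2.0 kb to 5.6 and 4.2 kb, and an intergenic region 25.5 kb before the gene was islanded at 48 h alone, with 1.8 kb in each replicate.

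Among the dehydrogenases, *Acadm* had the smallest adjusted p. Its window held 9.0 and 8.8 kb at 0 h and 21.4 and 21.6 kb at 48 h, so the replicates were closer to each other than the time points (log2 change 1.18 ± 0.13, SE, limma adjusted p = 0.000577). The *Acadm* promoter region grew from 2.6 kb in each replicate to 7.2 and 7.4 kb. The larger part of the covered length lay 29.8 kb downstream at the promoter of *Rabggtb*, which encodes a subunit of the enzyme that attaches lipids to Rab proteins, with 6.4 and 6.2 kb at 0 h and 11.6 and 14.2 kb at 48 h. The *Acadl* window held 6.6 and 7.0 kb at 0 h and 4.6 and 4.0 kb at 48 h, a log2 change of -0.56 ± 0.15 (SE, limma adjusted p = 0.0227). This decrease lay outside the *Acadl* promoter, which held 2.4 and 1.4 kb at 0 h and 2.2 and 1.8 kb at 48 h. An intergenic region 8.9 kb before the gene lost its islands of 1.2 and 1.6 kb. The promoter region of the neighbour *1110028C15Rik*, 47.2 kb downstream, went from 3.0 and 4.0 kb to 2.4 and 2.2 kb. The *Acadvl* window, with 28 and 26.2 kb at 0 h and 29.0 and 24.4 kb at 48 h, overlapped between time points. *Hadha* shares its promoter with *Hadhb*, the beta subunit gene, and its window went from 3.4 and 3.2 kb to 4.0 and 5.2 kb (log2 change 0.37 ± 0.19, SE, limma adjusted p = 0.172).

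The coactivator windows differed from each other. The *Ppargc1b* window held 9.4 and 8.4 kb at 0 h and 29.2 and 16.2 kb at 48 h (log2 change 1.20 ± 0.25, SE, limma adjusted p = 0.00842). All values at 48 h were above those at 0 h, although replicate A gained far more than replicate B. The promoter region grew from 2.0 and 3.0 kb to 7.2 and 5.0 kb. Regions 30.8 and 17.3 kb inside the gene and 47.9 kb before it had no island at 0 h and an island in both replicates at 48 h, whereas a region 39.3 kb before it had 6.8 kb in replicate A alone. The promoter of the neighbour *Pde6a* went the other way, from 2.2 and 2.6 kb to no island. The *Ppargc1a* window, the longest of the 9, held 39.2 and 29.0 kb at 0 h, which is 18.3% and 13.6% of its length, and 33.6 and 27.2 kb at 48 h, with overlapping values (log2 change -0.15 ± 0.17, SE, limma adjusted p = 0.532). Within it, the region around the promoter went from 10.2 and 7.6 kb to 14.2 and 11.8 kb, while a region 55.1 kb inside the gene lost islands of 4.2 and 2.4 kb and a region 40.8 kb before it lost islands of 2.6 and 1.8 kb.

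The *Ucp1* window held 1.8 and 1.0 kb at 0 h and 9.4 and 7.0 kb at 48 h, the largest log2 change of the 9 members (1.95 ± 0.24, SE, limma adjusted p = 0.000954). These islands stood in 2 places, neither of them at *Ucp1* itself. An intergenic region 12.2 kb before the start (chr8:85799801-85804200) had no island at 0 h and 4.4 and 3.2 kb at 48 h, and 38% and 33.3% of the islands of the lists scored higher. The promoter of *Elmod2*, 42.3 kb downstream, went from 1.8 and 1.0 kb to 5.0 and 3.8 kb. The stretch of the upstream region shared by both replicates held 4 C/EBP elements and no ERR or DR1 element. The 200 bases around one of them are shown from the plus strand of mm9 (chr8:85800499-85800698). The element, in capitals, is a match on the minus strand. Beside it are the 57 bases around the ERR element found in a distal island of replicate A 14.1 kb before *Acadm* (chr3:153620779-153620835, shown from the minus strand).
Ucp1 upstream island: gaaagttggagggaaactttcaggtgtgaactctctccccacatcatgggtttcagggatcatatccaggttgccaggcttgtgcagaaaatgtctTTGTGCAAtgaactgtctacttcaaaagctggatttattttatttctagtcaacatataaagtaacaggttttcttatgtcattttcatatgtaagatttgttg
Acadm upstream island: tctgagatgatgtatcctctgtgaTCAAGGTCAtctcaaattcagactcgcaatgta
C/EBP elements occurred in the middle 1000 bases of 47.4% of distal islands that were present at 48 h without a 0 h island in the same replicate of empty-vector cells, in replicate A as in replicate B. ERR elements occurred in 2.29% and 2.25% of them and DR1 elements in 2.53% and 2.6%. In the same middle stretch the *Ucp1* island held 2 C/EBP elements. The C/EBP element shown and the ERR element of the *Acadm* island lay outside the middle stretch of their islands, so these shares do not apply to whole islands.

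**Figure D1:**
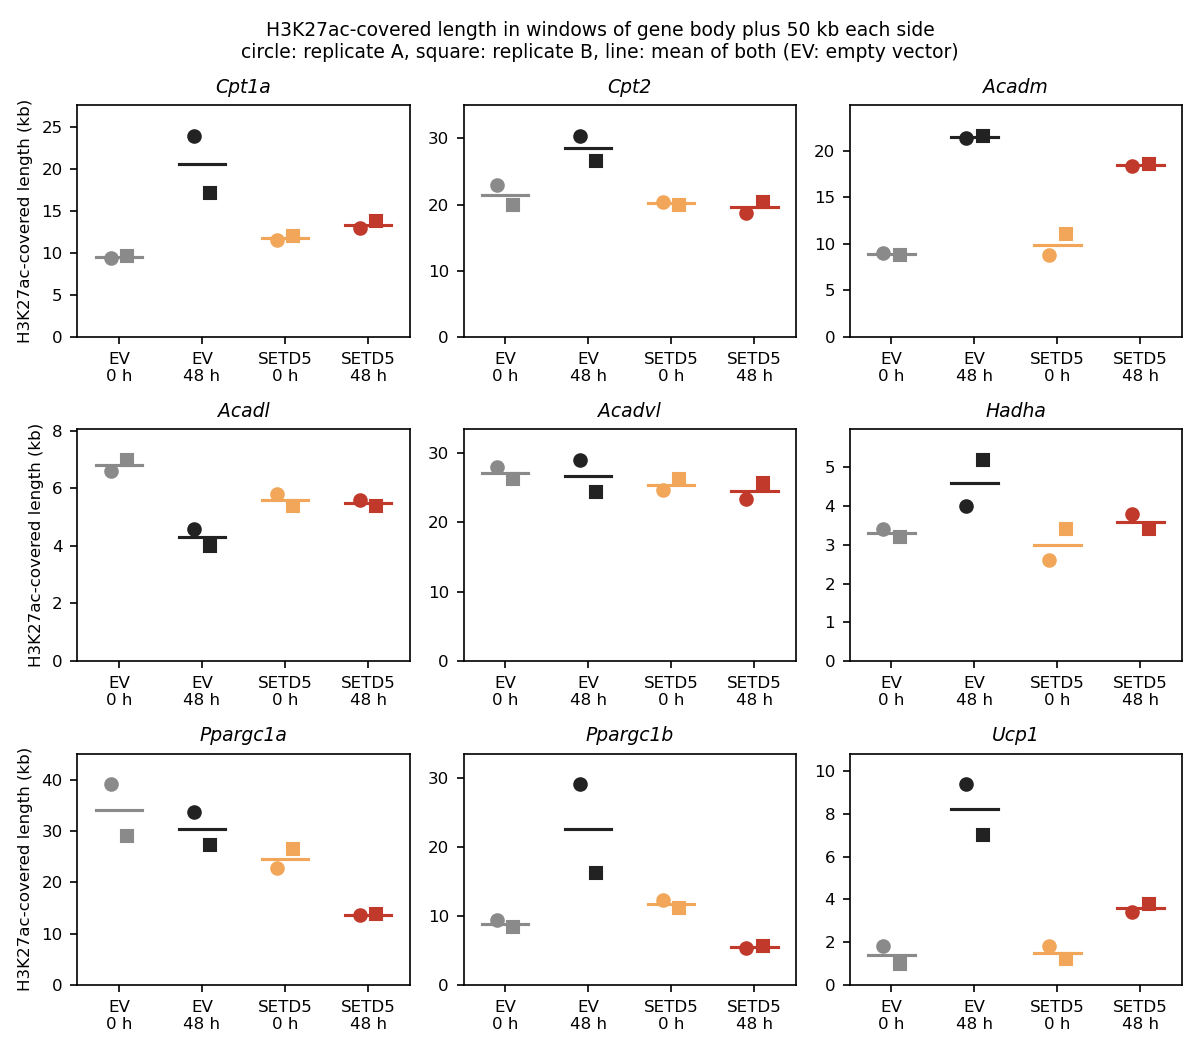
H3K27ac-covered length in kb (y axis, from 0, scaled for each gene) in the window of each of the 9 genes, by vector and time (x axis), with replicate A as a circle, replicate B as a square and the mean of both as a line. At 48 h the SETD5 libraries of *Ppargc1b* (5.4 and 5.6 kb) and *Ucp1* (3.4 and 3.8 kb) lie below those of empty-vector cells (29.2 and 16.2 kb, 9.4 and 7.0 kb).

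Leaving out single libraries changed some of these calls. *Cpt1a*, *Acadm* and *Ucp1* remained called higher without any 1 of the 8 libraries. *Ppargc1b* was not called without replicate B of empty-vector cells at 0 h (limma adjusted p = 0.0561), *Acadl* was not called without either empty-vector library at 0 h or without replicate B at 48 h (up to 0.0837), and *Cpt2* was called only without replicate A at 0 h or replicate B at 48 h of empty-vector cells, with an adjusted p of up to 0.177 without each of the others. With islands on promoters of other genes left out of each window, an alternative added after the data had been seen, *Cpt1a*, *Acadm*, *Ppargc1b* and *Ucp1* were called higher and no member lower. With only islands above the median score of their list, *Ppargc1b* was not called (log2 change 0.26, adjusted p = 0.761), nor were *Cpt2* and *Acadl*, and *Hadha* was called higher (0.75, adjusted p = 0.0192).

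The same comparison in SETD5 cells asked whether the windows gained H3K27ac in cells that carried the SETD5 virus. Of the 9 windows, 2 rose (*Acadm* and *Ucp1*) and 2 fell (*Ppargc1a* and *Ppargc1b*), against 14.9% of all windows called higher and 11.8% called lower. The median log2 change was -0.02 for the members and 0 for all windows.

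*Acadm* went from 8.8 and 11 kb at 0 h to 18.4 and 18.6 kb at 48 h in SETD5 cells (log2 change 0.85 ± 0.13, SE, limma adjusted p = 0.00369), with the larger part of the length again at *Rabggtb*. Without islands on promoters of other genes its log2 change was 0.20 and was not called, whereas *Cpt2* was then called higher (0.48, limma adjusted p = 0.0331). *Ucp1* went from 1.8 and 1.2 kb to 3.4 and 3.8 kb (log2 change 0.89 ± 0.24, SE, limma adjusted p = 0.034). Its upstream region gained 1.8 kb in each replicate, and the *Elmod2* promoter held 1.6 and 2.0 kb after 1.8 and 1.2 kb.

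Both coactivator windows lost covered length. *Ppargc1a* went from 22.8 and 26.4 kb to 13.6 and 13.8 kb (log2 change -0.80 ± 0.17, SE, limma adjusted p = 0.014), and *Ppargc1b* from 12.4 and 11.2 kb to 5.4 and 5.6 kb (-0.98 ± 0.25, SE, limma adjusted p = 0.027). The time points did not overlap for either gene. In the *Ppargc1a* window the same regions at 55.1 kb inside and 40.8 kb before the gene that lost their islands in empty-vector cells lost them in SETD5 cells too, and the promoter region went from 7.2 and 7.4 kb to 5.4 and 6.2 kb. The other 5 members did not pass the test, with log2 changes between -0.05 (*Acadvl*) and 0.21 (*Hadha*). *Acadm* remained called without any 1 of the 8 libraries. *Ppargc1b* and *Ucp1* were not called without any 1 of the 4 SETD5 libraries (adjusted p up to 0.129 and 0.167), and *Ppargc1a* was not called without replicate B at 0 h or either replicate at 48 h (up to 0.0886).

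**Figure D2:**
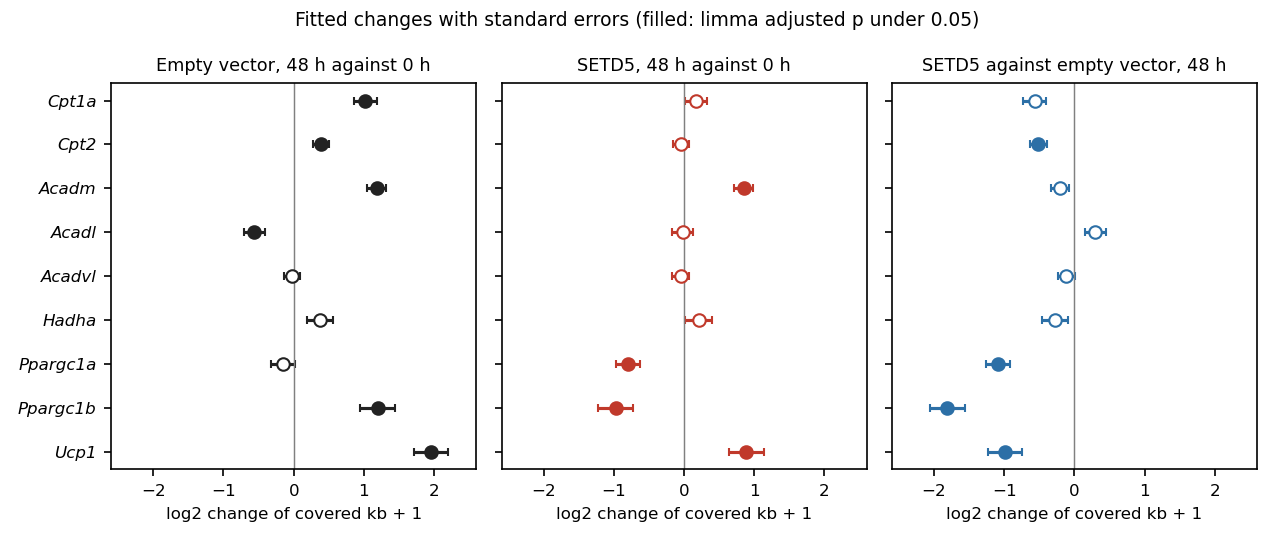
Fitted log2 change of covered kb + 1 (x axis) with its standard error (bars) for each gene (y axis) in 3 comparisons, where filled points passed the limma test. *Ppargc1b* lies at 1.20 in empty-vector cells, at -0.98 in SETD5 cells and at -1.81 between vectors at 48 h.

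Vectors were then compared directly at each time point. At 0 h none of the 9 members differed under limma, while 1.37% of all windows were higher and 0.951% lower in SETD5 cells. At an unadjusted limma p under 0.05 there was 1 member, *Ppargc1a*, with a log2 difference of -0.44 ± 0.17 (SE, limma adjusted p = 0.27). At 48 h, 4 members were lower in SETD5 cells and none higher, against 7.71% lower and 6.77% higher of all windows. The median log2 difference was -0.52 for the members and -0.06 for all windows. This comparison uses the same empty-vector libraries at 48 h as the change over time in empty-vector cells, so the results are not independent of each other.

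The members lower in SETD5 cells at 48 h were both coactivators, *Ucp1* and *Cpt2*. The log2 difference was -1.81 ± 0.25 for *Ppargc1b* (SE, limma adjusted p = 0.0071), -1.09 ± 0.17 for *Ppargc1a* (adjusted p = 0.01), -0.99 ± 0.24 for *Ucp1* (adjusted p = 0.0386) and -0.52 ± 0.12 for *Cpt2* (adjusted p = 0.0319). For each of these 4 genes both SETD5 libraries lay below both empty-vector libraries. *Cpt1a*, with 13 and 13.8 kb in SETD5 cells against 24 and 17.2 kb, did not pass the test (log2 difference -0.57 ± 0.16, SE, limma adjusted p = 0.06), but was called lower without replicate B of empty-vector cells at 48 h (-0.80, adjusted p = 0.0292). *Acadm* (-0.21 ± 0.13) and *Hadha* (-0.28 ± 0.19) did not pass either, and *Acadl* was at 0.30 ± 0.15 (SE, limma adjusted p = 0.237).

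The regions behind these differences are visible in the map of islands. At *Ppargc1b* the regions at 30.8 and 17.3 kb inside the gene, with islands in both empty-vector libraries at 48 h, had none in SETD5 cells, and the promoter region held 2.0 and 2.6 kb in place of 7.2 and 5.0 kb. At *Ppargc1a* the promoter region held 5.4 and 6.2 kb in SETD5 cells against 14.2 and 11.8 kb, and the region 28.1 kb before the gene held 4.4 and 3.4 kb against 10.8 and 8.6 kb. At *Cpt2* the own promoter did not take part: it held 4.2 and 4.6 kb in SETD5 cells and 5.6 and 4.2 kb in empty-vector cells. The region with the largest difference was the promoter of *Slc1a7*, a glutamate transporter gene, with 1.4 kb and no island in SETD5 cells against 6.2 and 4.6 kb, and without islands on promoters of other genes *Cpt2* was not called (limma adjusted p = 0.405). Rank moved with length at the promoter of *Ppargc1b*, where 12.1% and 20.4% of islands scored higher in empty-vector cells at 48 h and 65.9% and 52.3% in SETD5 cells.

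The calls between vectors at 48 h rest on both SETD5 libraries of that time. Without replicate A or replicate B of them no member was called. The log2 differences were then -1.79 and -1.83 for *Ppargc1b* and -1.08 and -1.1 for *Ppargc1a*, close to those with all libraries. *Ucp1* and *Cpt2* were called only without an empty-vector library at 0 h. *Ppargc1a* was also not called without replicate A of empty-vector cells at 48 h. With each list held to its 31000 highest-scoring islands, which gave 733 windows higher and 1654 lower over all windows in place of 1209 and 1377, *Ppargc1a* and *Ppargc1b* were called lower and *Ucp1* and *Cpt2* were not. *Ucp1* was also not called with a pseudocount of 0.2 kb (adjusted p = 0.0734) or with no filter (0.0929). With only islands above the median score of their list, *Cpt2* was not called and *Hadha* was called lower (-0.70, adjusted p = 0.0477). The empty-vector and SETD5 lists of replicate A also differed in median island length at 48 h (2800 and 2000 bp), more than those of replicate B (2400 and 2200 bp), and the part of this difference in the covered lengths was not tested. At 48 h, 6 and 6 of 8 adipocyte marker promoters were marked in SETD5 cells and 8 and 7 in empty-vector cells, and the part of the state of differentiation in these results was not tested.

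Whether the change with time differed between vectors was tested as an interaction. *Ppargc1b* alone among the members passed, with a log2 difference between the changes of -2.18 ± 0.35 (SE, limma adjusted p = 0.0263), against 2.08% of all windows lower and 1.59% higher. The other members lay between -1.06 ± 0.34 for *Ucp1* (adjusted p = 0.147) and 0.54 ± 0.21 for *Acadl* (adjusted p = 0.213). The medians were -0.43 for the members and -0.12 for all windows. The call for *Ppargc1b* held without either empty-vector library at 48 h and was lost without each of the other 6 libraries, with a log2 difference between -2.25 and -2.11 and an adjusted p of up to 0.117. Without any 1 of the 4 SETD5 libraries the interaction called 0 of all windows.

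**Figure D3:**
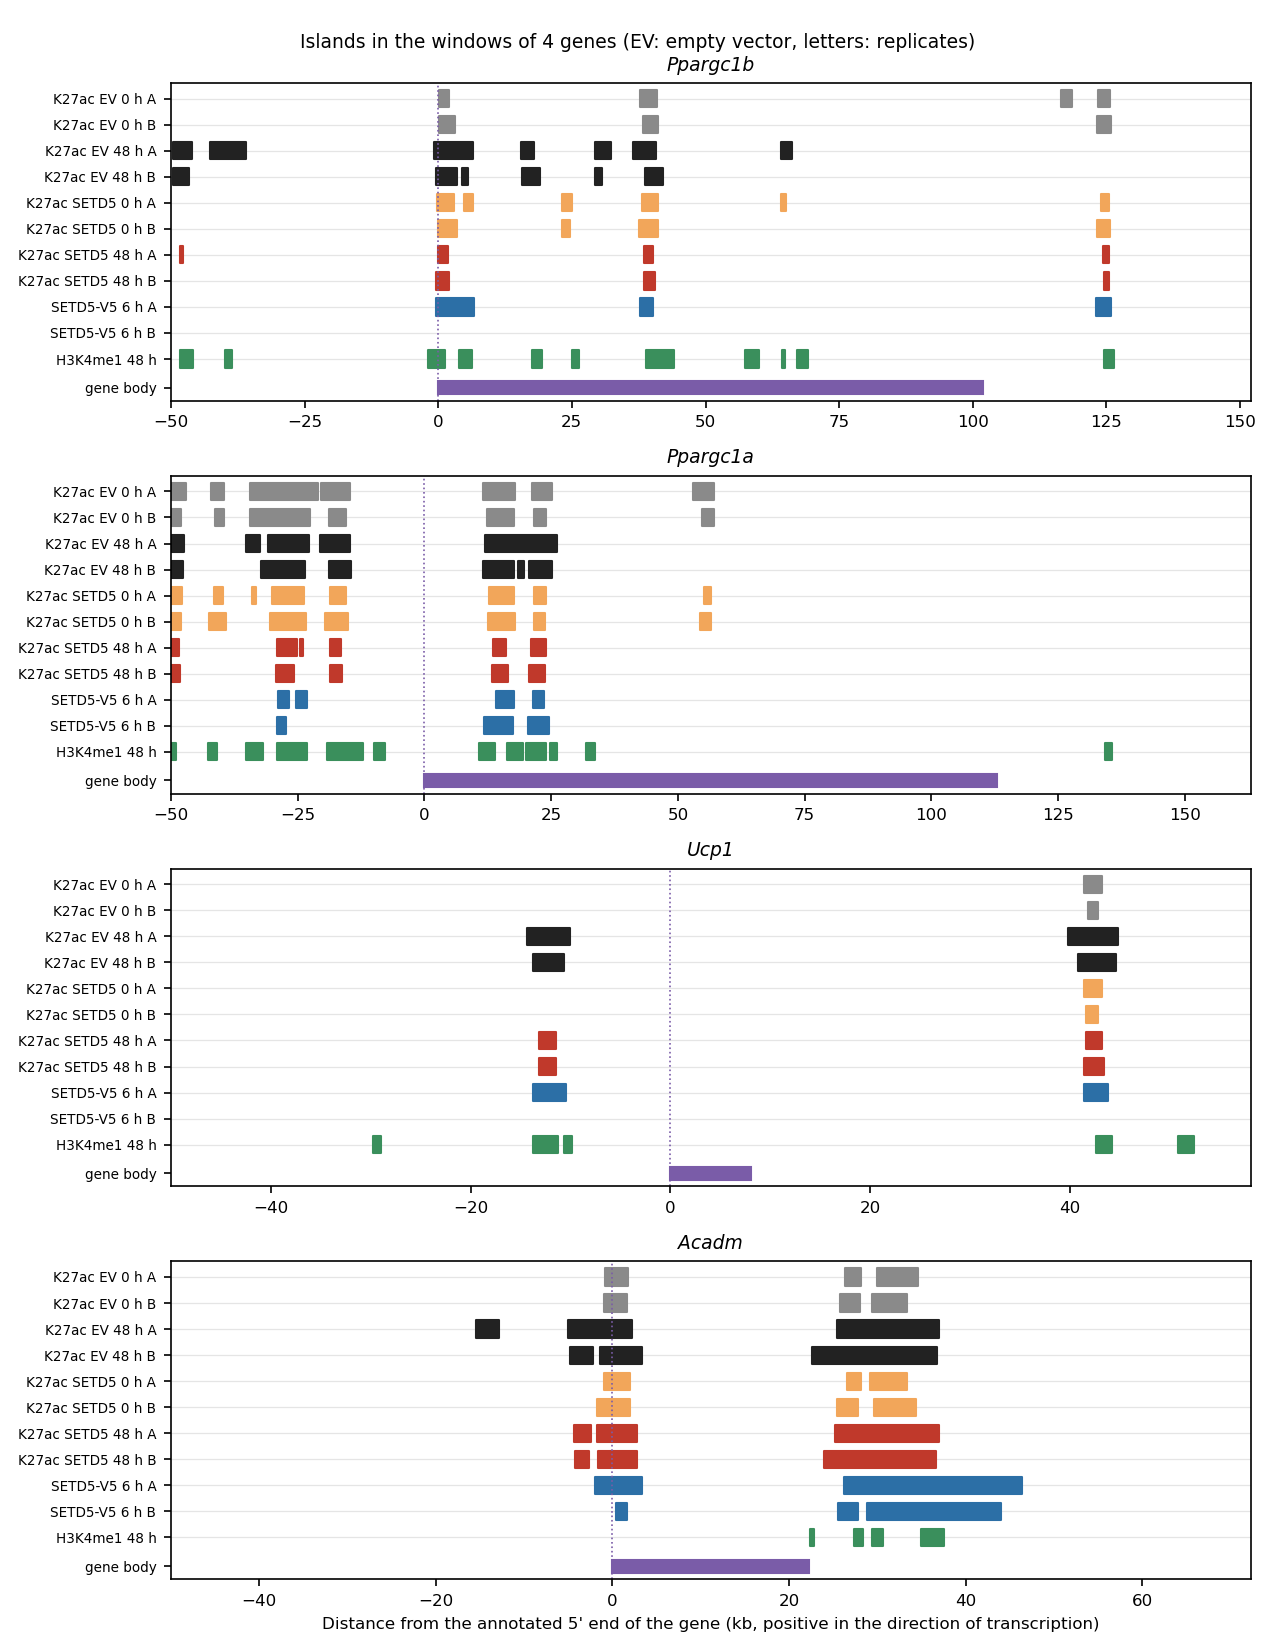
Islands (bars) by distance in kb from the annotated 5′ end of the gene (x axis) for *Ppargc1b*, *Ppargc1a*, *Ucp1* and *Acadm*, with 1 row per library and the gene body at the bottom. *Ucp1* has H3K27ac islands 12.2 kb before its start at 48 h alone and 42.3 kb after it in all 8 libraries, and none at its start.

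Distal islands that appeared at 48 h were then counted, that is islands off every promoter without a 0 h island in the same vector and replicate. *Ppargc1b* held 5 and 4 of those of empty-vector cells, and 1 and 0 in SETD5 cells. *Cpt1a*, *Acadm* and *Ucp1* had 1 such island in every vector and replicate, and *Cpt2* had 1 and 2 in empty-vector cells and 1 and 1 in SETD5 cells. The *Acadm* islands of empty-vector cells were not the same in both replicates. That of replicate A, 14.1 kb before the gene, had no counterpart in replicate B or in SETD5 cells. That of replicate B lay within the *Acadm* promoter region given above, off the promoter itself. With only islands above the median score of their list, *Ppargc1b* had 2 and 1 in empty-vector cells and none in SETD5 cells, and *Ucp1* had none in SETD5 cells. That of *Ucp1* overlapped H3K4me1 islands at 48 h but not at 0 h, while that of *Cpt1a* overlapped H3K4me1 islands at both times. *Acadl*, *Acadvl* and *Hadha* had none in empty-vector cells, whereas in SETD5 cells *Acadvl* had 1 in each replicate and *Acadl* and *Hadha* had 1 in replicate A. These counts were not compared with those of all windows.

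H3K4me1 was compared as values of single libraries, with no test. *Cpt1a* and *Ppargc1a* were the members with the longest coverage, at 34.0 kb (0 h) and 50.9 kb (48 h) for *Cpt1a*, and 35.8 and 36 kb for *Ppargc1a*. *Ppargc1b* had 11.8 kb at 0 h and 25.2 kb at 48 h. *Ucp1* had no H3K4me1 island at 0 h and 7.4 kb in 5 islands at 48 h, and *Acadl* had 3.0 kb at 0 h and no island at 48 h. On the scale of covered kb + 1, 2 of 9 members were at least 2-fold higher at 48 h and 1 at least 2-fold lower, and so were 15.7% and 9.93% of 16649 windows with an island. Promoters of 3 members carried an H3K4me1 island at each time, against 19.6% and 21.9% of all genes.

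SETD5-V5 islands in the windows were compared between 6 h and 0 h to see where the tagged protein was found early in induction. At 6 h the 9 windows held 31 and 16 islands in replicates A and B. Of the 6 windows with islands in enough libraries to be tested, *Acadl* was called higher (limma adjusted p = 0.0223) and none lower, against 19.2% of 13825 windows called higher and 0.116% lower. *Acadl* passed this filter through its 6 h libraries alone, where it is high, so its call is no test of a change from 0 h. The median log2 change, which depends on the pseudocount because several windows had no island at 0 h, was 1.63 for those 6 members and 1.91 for all windows. With each list held to 6000 islands, the median of all windows was 0.72, with 1066 windows higher and 389 lower in place of 2658 and 16. With no filter, 2 of 22350 windows were called higher and 0 lower, and *Acadl* was not called (limma adjusted p = 0.184).

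*Acadl* had no SETD5-V5 island at 0 h and 5.8 and 5.0 kb at 6 h in replicates A and B. Both replicates had an island at the neighbour *1110028C15Rik*, over its promoter in replicate A and in its intron in replicate B, and the *Acadl* promoter was islanded in replicate A alone (2.0 kb). *Acadm* went from 7.8 and 11.8 kb to 25.6 and 18.6 kb, *Ppargc1a* from 6.2 and 3.8 kb to 9.8 and 11.4 kb, and *Cpt1a* from 22.6 kb and no island to 27.4 and 15.4 kb. The time points did not overlap for *Acadm* and *Ppargc1a*, but neither passed the test (limma adjusted p = 0.277 and 0.341). With equal numbers of islands per list the direction of *Ppargc1a* turned and it was called lower (-2.56, limma adjusted p = 0.0204). *Cpt2* (26.4 and 2.8 kb at 6 h) and *Acadvl* (41.4 and 11.4 kb) differed widely between replicates. *Hadha*, *Ppargc1b* and *Ucp1* had islands in replicate A at 6 h alone, with 2.4, 12.4 and 5.8 kb, and were not tested. Without islands on promoters of other genes *Acadl* was not called (adjusted p = 0.0505) and *Acadm* was (adjusted p = 0.0197). *Cpt1a* was called higher without replicate A at 0 h (adjusted p = 0.0166). Without replicate B at 0 h *Acadl* was not called. Without either library at 6 h, or with equal numbers of islands per list, it had too few islands for the test. The share of all windows called rested on single libraries as well: 0 windows were called higher without replicate B at 0 h or without either library at 6 h, and 9424 without replicate A at 0 h.

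Promoters with a SETD5-V5 island numbered 4 and 1 of the 9 members at 0 h and 7 and 2 at 6 h (replicates A and B), against 18.1% and 4.96% of all genes at 0 h and 40.8% and 21.4% at 6 h. *Cpt1a* was the member marked at its promoter in both replicates at 6 h, and *Ppargc1a* in both replicates at 0 h. Of the SETD5-V5 islands of the windows at 6 h, 87.1% (replicate A) and 87.5% (replicate B) lay on H3K27ac islands of empty-vector cells at 48 h, against 57.1% and 58.4% of all islands of those lists. The overlap with H3K27ac islands of empty-vector cells at 0 h was 83.9% and 81.2%, against 57.5% and 56.2%. The windows were placed around genes and the lists were not, which was not corrected for.

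**Figure D4:**
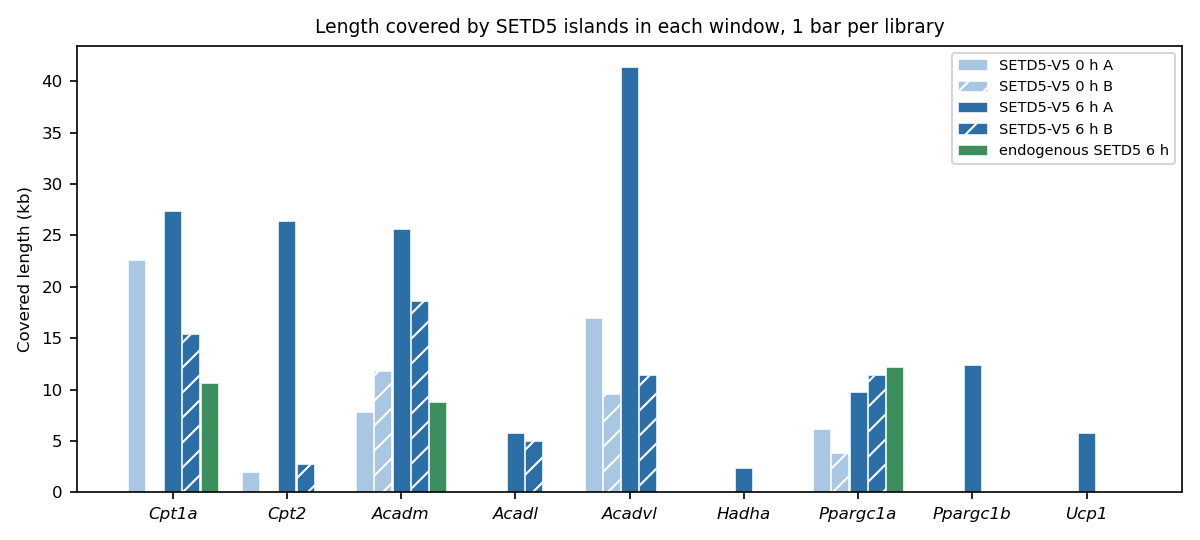
Length in kb covered by SETD5 islands (y axis) in the window of each gene (x axis), with 1 bar per library, hatched for replicate B and green for endogenous SETD5 at 6 h. *Cpt1a* (10.6 kb), *Acadm* (8.8 kb) and *Ppargc1a* (12.2 kb) are the members with endogenous SETD5 islands.

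Endogenous SETD5 had no island in any of the 9 windows at 0 h. At 6 h it had 10.6 kb at *Cpt1a*, 8.8 kb at *Acadm* and 12.2 kb at *Ppargc1a*, and none at the other 6 members. The islands of *Cpt1a* and *Ppargc1a* reached their promoters, whereas that of *Acadm* lay over the promoters of *Rabggtb* and *Msh4*. Of 5244 windows with an island at either time, 63.7% were at least 2-fold higher at 6 h on the scale of covered kb + 1 and 11.3% at least 2-fold lower. The list grew from 2132 to 3293 islands. The 3 members entered this set through their 6 h islands alone, so their direction was fixed by the filter and is no result. In the 6 h list 14.3% of islands scored higher than the one in the *Acadm* window, against 60.8% and 59.1% for the promoter islands of *Cpt1a* and *Ppargc1a*.

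Other genes of the pathway were described from 4 lists, whose counts are to be read against all windows: 24.1% higher and 13.4% lower with a median of 0.13 in empty-vector cells over time, and 14.9% and 11.8% with a median of 0 in SETD5 cells. The mitochondrial beta-oxidation list (23 genes, all tested for H3K27ac) had 8 genes higher and none lower at 48 h in empty-vector cells, with a median log2 change of 0.36, against 24.1% and 13.4% of all windows. *Acad9*, an acyl-CoA dehydrogenase that also serves complex I assembly, rose by 2.82 ± 0.33 (SE, limma adjusted p = 0.000714). The electron transfer flavoprotein subunits, which take electrons from the dehydrogenases, rose as well (*Etfa* by 1.93 ± 0.23 and *Etfb* by 1.60 ± 0.16), as did carnitine acetyltransferase, *Crat* (1.34 ± 0.15). In SETD5 cells 2 genes of this list rose, *Acadsb* (0.96 ± 0.18) and *Etfb* (0.56 ± 0.16). Between vectors at 48 h, 1 of the 23 genes was lower in SETD5 cells and none higher, against 7.71% and 6.77% of all windows. This was *Etfb* (-0.85 ± 0.16, limma adjusted p = 0.0174). *Etfa* was higher in SETD5 cells at 0 h already (1.54 ± 0.23, adjusted p = 0.0222), and its change with time differed between vectors (-1.61 ± 0.33, adjusted p = 0.0472).

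In the peroxisomal list (15 genes) 6 rose and 2 fell in empty-vector cells, with a median of 0.39, and the share that fell was close to the 13.4% of all windows. *Pex11a*, a peroxisome proliferation factor, rose by 2.49 ± 0.30 and *Scp2*, a sterol carrier and thiolase gene, by 1.59 ± 0.17, followed by *Ech1* (0.88 ± 0.11). *Hsd17b4* and *Acaa1b*, also oxidation enzymes of the peroxisome, fell (-1.92 ± 0.36 and -1.57 ± 0.41). In SETD5 cells *Pex11a* (2.17 ± 0.30) and *Ech1* (0.47 ± 0.11) rose. At 48 h, 2 of the 15 genes were lower in SETD5 cells than in empty-vector cells and none higher, against 7.71% and 6.77% of all windows. *Scp2* was among them (-1.30 ± 0.17, limma adjusted p = 0.00626).

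Of a list of PGC-1 partners, nuclear receptors and regulators of energy use, which also holds the malonyl-CoA enzymes *Acaca*, *Acacb* and *Mlycd* (22 genes, 21 tested), 8 rose and 1 fell in empty-vector cells, 3 rose and 2 fell in SETD5 cells, and 7 were lower and none higher in SETD5 cells at 48 h, with a median log2 difference of -0.37 between vectors. Of all windows, 7.71% were lower and 6.77% higher at 48 h, with a median of -0.06, and the counts over time in SETD5 cells were close to the shares of all windows. *Prkaa1*, a catalytic subunit of AMP-activated kinase, rose by 1.13 ± 0.11 in empty-vector cells and by 0.60 ± 0.11 in SETD5 cells, and *Rxra*, the PPAR partner, by 0.79 ± 0.10 and 0.55 ± 0.10. *Esrrg*, an oestrogen-related receptor, had no island and 0.8 kb at 0 h and 9.2 and 5.8 kb at 48 h in empty-vector cells (limma adjusted p = 0.00832), and no island in either SETD5 library at 48 h (limma adjusted p = 0.0141 between vectors). *Nrf1*, a regulator of respiratory genes, fell in SETD5 cells (-0.60 ± 0.12) and was lower there at 48 h (-0.63 ± 0.12, adjusted p = 0.0159). The interaction passed for *Nrf1* (-0.87 ± 0.16, adjusted p = 0.0406) and *Ppara*, the fatty acid receptor of oxidative tissues (-1.67 ± 0.32, adjusted p = 0.0423).

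In the thermogenic list (17 genes, 16 tested, of which *Cpt1b* also stands in the mitochondrial list) 5 rose and 3 fell in empty-vector cells, with a median of 0.06, against 24.1% and 13.4% of all windows. *Elovl3*, a fatty acid elongase of cold-exposed fat, rose by 1.82 ± 0.19, *Ucp3* by 1.41 ± 0.22 and *Ucp2* by 1.25 ± 0.21. *Ucp2* and *Ucp3* are neighbours, so their windows share islands. *Tmem26*, *Gatm* and *Cidea*, markers of beige and brown fat, fell (-0.83 ± 0.20, -0.74 ± 0.19 and -0.44 ± 0.14, limma adjusted p = 0.0145, 0.0204 and 0.0478). In SETD5 cells 4 rose and none fell, against 14.9% and 11.8% of all windows. At 48 h *Kcnk3* (-1.20 ± 0.17) and *Elovl3* (-1.24 ± 0.19) were lower in SETD5 cells, and *Ebf2*, a factor of the brown lineage, was higher (2.00 ± 0.43, limma adjusted p = 0.0256). Thus 2 genes were lower and 1 higher, against 7.71% and 6.77% of all windows. *Ebf2* already held 19.2 and 15.4 kb in SETD5 cells at 0 h, against 6.6 and 2 kb in empty-vector cells. *Kcnk3* held 10.2 and 9.2 kb at 0 h against 19 and 16.2 kb, and *Elovl3* 1.2 and 1.6 kb against 1.8 and 1.8 kb. None of these genes was called at 0 h, and the interaction called no gene of this list.

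SETD5-V5 covered length was called higher at 6 h for 6 of 17 tested genes of the mitochondrial list and 0 of 10 of the peroxisomal list. It was called higher for 4 of 18 of the PGC-1 partner list and 4 of 14 of the thermogenic list. Of all windows 19.2% were called higher, and no gene of the lists was called lower. *Etfdh*, the dehydrogenase that passes electrons to ubiquinone, had no island at 0 h and 19 and 11.9 kb at 6 h. *Acaca*, an acetyl-CoA carboxylase, had none at 0 h and 18.8 and 16.8 kb at 6 h. Neither did the called genes *Slc22a5*, *Hadh*, *Etfa*, *Tfam*, *Esrrg*, *Sirt1*, *Gatm*, *Ebf2*, *Ucp2* and *Ucp3* have an island at 0 h. All of these, with *Etfdh* and *Acaca*, passed the filter through their 6 h libraries alone. Their calls are no test of a change from 0 h, and the counts of the lists are not read as one. The windows of *Ucp2* and *Ucp3* share islands, so their calls are not independent. With no filter 2 of 22350 windows were called higher, so the counts of the lists depend on the filter. The fitted size of such changes from no island depends on the pseudocount and is not given.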

How the data were processed

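ChIP-seq islands of 3T3-L1 cells were analysed from 16 deposited lists, 1 per library, each giving the chromosome, start, end and score of an island. According to the study's methods, reads were mapped to mm9 over 36 bases, and the authors called islands with SICER or SICER2 (window 200 bp, with a gap of 400 bp for the histone marks or 600 bp for SETD5, E-value 100). For lists where the study gives a number of islands for both versions, the deposited list has the number given for SICER2. The study states SICER2 for H3K4me1, and for the remaining lists does not state which version was used. Whether an input control entered the calls is not given in the sources used here. The deposited score is the caller's own and was used only as a rank within a list. The other deposited columns, island start and end, gave the covered length. With a window of 200 bp, covered length has that resolution. The study states the total reads of each library, which differ between libraries; they were not used here, and covered length was not corrected for them.

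Covered kb was computed for each protein-coding gene body ± 50 kb (GENCODE annotation of the same build). Windows with an island in at least 2 libraries were fitted with limma 3.58.1 in R 4.3.3 (trend, Benjamini-Hochberg adjustment over all windows) on log2(covered kb + 1), over 8 H3K27ac libraries or 4 SETD5-V5 libraries, with a call at an adjusted p under 0.05. The study names replicates biological, but whether they came from separate transductions is not stated, so p-values measure the spread between these libraries. H3K4me1 and endogenous SETD5 had 1 library per time and no test. Python 3.11.15 was used for intervals and sequences, and the fit was tested on simulated data. Alternatives were equal numbers of islands per list, islands above the median score, windows of ± 10 kb, a pseudocount of 0.2 kb, no filter, numbers of islands (also merged within 1000 bp), a replicate block and leaving out each library. Leaving out islands on promoters of other genes was added after seeing the data. The members and gene lists were chosen with earlier results of these data known. From each list and comparison up to 4 genes called in each direction, those with the smallest adjusted p, were eligible to be named, and for each member the promoter islands and up to 3 distal islands that appeared at 48 h in empty-vector cells. A gene of the peroxisomal list is not reported here by name.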

Additional observations from a re-analysis of the deposited data

Results flagged for a closer look

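The change of H3K27ac covered length with time around *Ppargc1b* differed between SETD5 and empty-vector cells by -2.18 on the log2 scale (limma interaction, adjusted p = 0.0263), being higher at 48 h in both empty-vector replicates and lower in both SETD5 replicates. Replicate A of empty-vector cells at 48 h held 29.2 kb against 16.2 kb in replicate B, and without it the difference was -1.77 (adjusted p = 0.0483). The call was lost without each of 6 other libraries (adjusted p between 0.0767 and 0.117).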

How the results depend on the processing

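Results are numbers of the 9 members called. For empty-vector cells over time, 6 were called, and 2 with the number of islands in place of length, 1 with islands merged within 1000 bp, and 3 to 5 when 1 library was left out. For SETD5 cells over time, 4 were called, and 2 each with ± 10 kb, with no filter, with the number of islands and with merged islands, and 1 to 4 when 1 library was left out. Between vectors at 48 h, 4 were called, and 2 with equal numbers of islands, 2 with ± 10 kb, 1 with the number of islands (*Acadvl*, higher, and none of the 4), 0 with merged islands, and 0 to 4 when 1 library was left out. Between vectors at 0 h, 0 were called, 1 (*Acadvl*) with the number of islands, and 0 when any 1 library was left out. The interaction called 1, and 0 with no filter, the number of islands or merged islands, and 0 to 1 when 1 library was left out. With islands above the median score it called *Ucp1* (-1.71) and not *Ppargc1b* (-2.41, limma adjusted p = 0.126). For SETD5-V5, 1 was called, and 0 with islands above the median score, ± 10 kb, no filter, the number of islands or merged islands, and 0 to 2 when 1 library was left out. *Acadl* had too few SETD5-V5 islands to be tested with equal numbers of islands per list, islands above the median score or ± 10 kb. With equal numbers the SETD5-V5 call was *Ppargc1a*, lower (-2.56). *Ucp1* had too few H3K27ac islands to be tested with ± 10 kb.

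Among results called under either setting, directions reversed for *Acadm* with merged islands (-0.21 in empty-vector and in SETD5 cells), *Acadvl* with the number of islands (0.19 in empty-vector cells over time and between vectors at 0 h, 0.17 in SETD5 cells over time and between vectors at 48 h), *Cpt2* in SETD5 cells without islands on promoters of other genes (0.48, called higher), and *Ppargc1a* for SETD5-V5 with equal numbers of islands (-2.56, called lower). The cause was not tested.

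The deviations of libraries with the same replicate letter correlated with r between -0.0344 and 0.118 over windows for H3K27ac and 0.175 for SETD5-V5, and with only letters A and B they were not treated as paired. With the replicate block 5 members were called in empty-vector cells and 3 between vectors at 48 h, *Cpt2* being lost in both, and 4, 0, 1 and 1 for SETD5 cells, vectors at 0 h, the interaction and SETD5-V5. Over all windows, the calls were 6696, 4763, 2586, 415, 657 and 2674 in the order of the comparisons above, and between 3184 and 6477, 2843 and 4617, 1455 and 2559, 230 and 907, 249 and 1517, and 2 and 3713 under the other settings. With 1 library left out they were between 4751 and 6236, 2601 and 4769, 548 and 2373, 23 and 307, 0 and 305, and 0 and 9487. Read depth limits which regions have an island, and lists were not corrected for it.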
